A study of Homo sapiens with 12 samples.

Results

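The 10 genes described here are direct targets of the transcription factor p53: CDKN1A, MDM2, GDF15, BAX, BBC3, FAS, SESN1, ZMAT3, TP53INP1 and RRM2B. They were taken as a named list and matched by gene identifier to a table of 65969 identifiers measured in 12 RNA libraries. Their selection used no threshold on a measured value. All 10 were found, and all 10 were among the 24898 genes with enough counts to be tested.

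The libraries are total RNA from human embryoid bodies, floating aggregates in which pluripotent cells begin to differentiate. They were grown from H1 and MEL1, both long-established lines of human embryonic stem cells. Every library came from cells carrying a lentiviral, doxycycline-inducible short hairpin RNA and selected with puromycin, either a control hairpin (SCR) or a hairpin against METTL14 (KD1, KD2 or KD3). METTL14 partners METTL3 in depositing N6-methyladenosine on RNA. H1 has 2 libraries each of SCR, KD1, KD2 and KD3, and MEL1 has 1 SCR, 2 KD1 and 1 KD2 library. All groups, controls included, received doxycycline at 2 µg/ml in aggregates seeded at 500 cells per microwell and were collected at day 10, so no group without vector or without doxycycline was compared. Whether a line was 1 clone or a selected pool is not given in the sources used here, nor whether replicate libraries came from separate cultures. P-values therefore measure the spread between these libraries, which may be technical.

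p53 is held at a low level by the ubiquitin ligase MDM2, itself a p53 target, which makes a negative feedback loop. When DNA is damaged or ribosomes, nucleotides or oxygen are limiting, p53 accumulates and binds response elements near its targets, whose products stop the cell cycle, repair DNA, restrain growth signalling or start apoptosis. Human pluripotent stem cells are known for a low threshold for apoptosis, and p53 is also known to act when they leave pluripotency.

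Library totals were 36609628 to 43508287 estimated counts, except the MEL1 SCR library with 15963241. METTL14 stood at 29.8 and 43.8 CPM in H1 SCR against 8.89 to 17.7 CPM in the 6 H1 knockdown libraries, and at 49.9 CPM in MEL1 SCR against 5.94 to 8.95 CPM in the 3 MEL1 knockdown libraries. CPM is the library-size-scaled count after TMM adjustment. The 5 pluripotency markers summed to 2282 to 3693 CPM in MEL1 and 1498 to 1946 CPM in H1, with POU5F1 at 240 to 879 CPM in MEL1 and 21.3 to 62.2 CPM in H1. LIN28A was the largest part of that sum (1517 to 1818 CPM in MEL1, 827 to 1132 CPM in H1). SOX2 went the other way, at 233 to 428 CPM in MEL1 and 417 to 749 CPM in H1. The 5 neural markers summed to 56.1 to 101 CPM in MEL1 and 339 to 519 CPM in H1, and the 7 trophoblast markers to 64.8 to 182 CPM in MEL1 and 19.2 to 25.8 CPM in H1, where XAGE2 was at 0 in all libraries. The trophoblast sum was mostly TFAP2A (46.1 to 160 CPM in MEL1, 14.3 to 21.9 CPM in H1), and CGA, CGB5, XAGE2 and ENDOU were at 1.29 CPM or less in every library. The 4 amnion and surface ectoderm markers summed to 9.73 to 15.5 CPM in MEL1 and 0.154 to 1.29 CPM in H1. The 6 mesoderm and endothelium markers summed to 157 to 161 CPM in H1 SCR and 62.2 to 90.6 CPM in the H1 knockdowns. That sum was nearly all KDR (153 to 157 CPM in SCR, 59.6 to 88.2 CPM in the knockdowns), and the other 5 genes added 1.78 to 2.59 CPM in the knockdowns and about 4 CPM in SCR. In such bulk RNA, fewer cells of a type and less RNA per cell cannot be told apart. Libraries also differed in how counts followed transcript GC content. The rank correlation across 15601 genes between GC content and a library's deviation from its line ran from -0.576 in MEL1 SCR to 0.420 in MEL1 KD1, and from -0.497 (KD3, replicate 2) to 0.574 (KD1, replicate 2) in H1, with the H1 SCR libraries at 0.202 and -0.441.

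Levels between genes were compared per length, as the mean over the 12 libraries in CPM per kilobase of annotated exon. That length joins all annotated exons of a gene, and another length could give another order. It was 13284 bases for MDM2, whose median transcript had 820, and 5548 for RRM2B, whose median transcript had 603. For TP53INP1 the 2 lengths were 5676 and 5634.5 bases. BAX, which opens the mitochondrial outer membrane, was highest at 26.4 CPM per kilobase. CDKN1A, the cyclin-dependent kinase inhibitor p21, followed at 14.2. The BH3-only protein gene BBC3 (PUMA) came next, and then GDF15, a secreted stress cytokine, at 8.46. RRM2B, a ribonucleotide reductase subunit for DNA repair, stood at 7.61, TP53INP1, a promoter of p53 phosphorylation and autophagy, at 7.35, and SESN1, an inhibitor of mTORC1, at 6.35. From BBC3 to SESN1, neighbours in this order differed by less than their SD over the libraries. MDM2 at 3.54, the RNA-binding protein gene ZMAT3 at 2.80 and the death receptor gene FAS at 1.16 were lowest. MDM4, which encodes the other main inhibitor of p53, stood at 3.06 on the same scale.

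**Figure D1:**
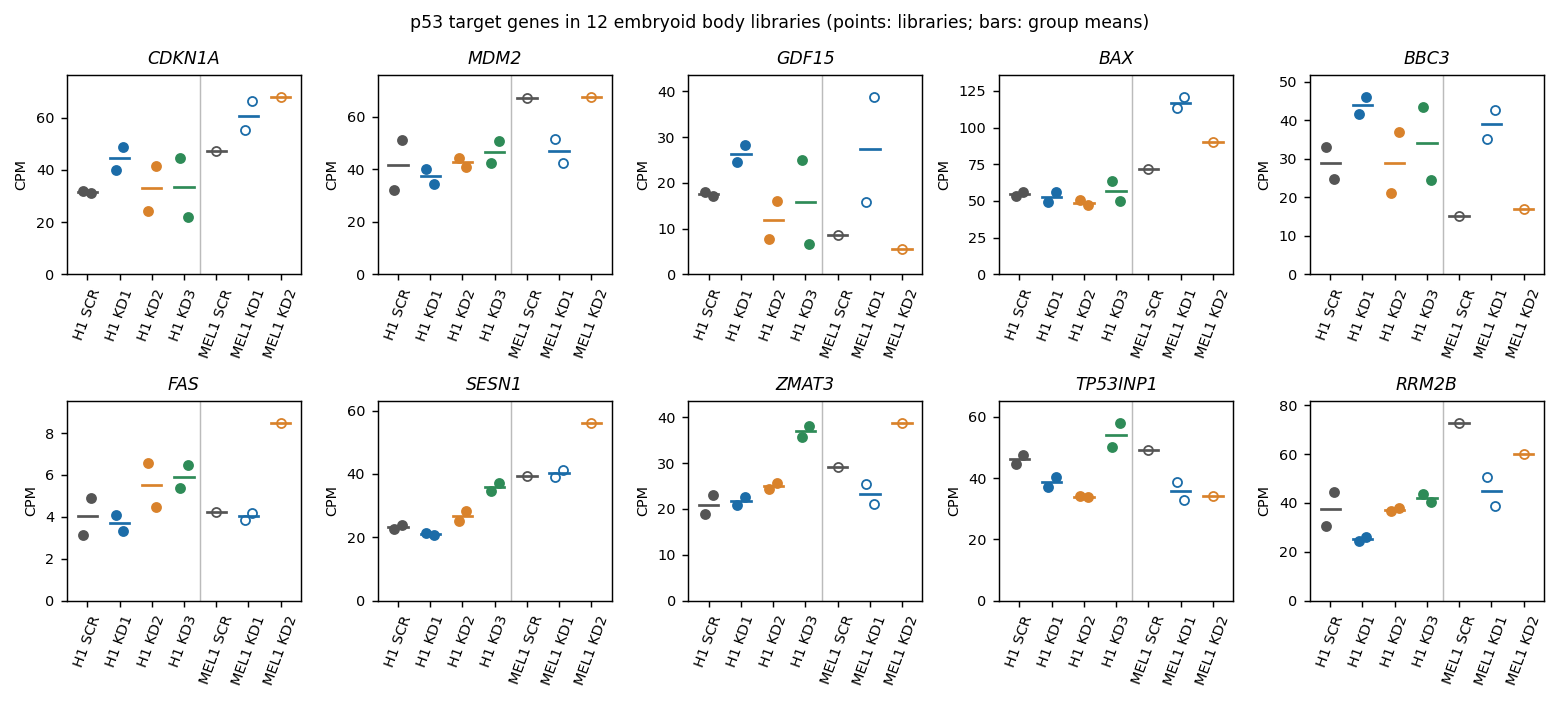
Scaled counts (CPM, y axis from 0) of the 10 p53 targets in each of 12 libraries by line and hairpin, with 1 point for each library and a bar at the group mean. ZMAT3 lies above 35 CPM in both H1 KD3 libraries and below 26 CPM in the other H1 libraries, and BAX lies above 71 CPM in the 4 MEL1 libraries and below 64 CPM in the 8 H1 libraries.

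The promoter sequences are shown because the list is defined by direct binding of p53. RefSeq promoter windows on GRCh38.p14, running from 250 bases before to 50 bases after a start site, were searched for the p53 response element, a pair of adjacent half-sites of 10 bases each. A match had at most 3 mismatches over the 20 bases and kept the core C and G of both half-sites. The element is its own reverse complement, so both strands give the same matches. Of 8 members with a printable window, 4 held a match, in 5 of their 16 windows. Over all genes, 392 of 35116 windows (1.12%) and 373 of 27305 genes (1.37%) held one. The mismatch limit was chosen after these matches were seen, and the members are listed for p53 binding, so these shares are description and no test. The same MDM2 match was counted in both windows that hold it. In the sequences below, read 5′ to 3′ on the strand of the gene, capitals mark the match:
MDM2: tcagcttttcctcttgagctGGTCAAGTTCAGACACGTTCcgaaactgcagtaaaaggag
FAS: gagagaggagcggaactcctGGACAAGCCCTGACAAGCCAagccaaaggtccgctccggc
SESN1: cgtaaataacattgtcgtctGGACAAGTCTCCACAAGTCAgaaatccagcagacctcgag
GDF15: AGCCATGCCCGGGCAAGAAC

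The MDM2 stretch is chr12:68808903-68808962 on the plus strand, and its match has 2 mismatches and lies upstream of 2 annotated start sites inside the gene, beginning 94 and 101 bases before them. The FAS stretch is chr10:88991289-88991348 on the plus strand, with 2 mismatches, beginning 122 bases before a start site. The SESN1 stretch is chr6:109008998-109009057 on the minus strand, with 3 mismatches, beginning 49 bases before the start site of a shorter transcript. The GDF15 match, chr19:18386186-18386205 on the plus strand with 3 mismatches, begins 28 bases after the start site and lies in the first exon of that transcript. The best place in a ZMAT3 window had 4 mismatches. A missing match says only that these letters are not in the window, and a match is a description of the letters.

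The first question was what METTL14 depletion did to these genes over both lines and all hairpins. None of the 10 passed the test across the 9 knockdown and 3 SCR libraries, with line as a covariate. In that comparison 0.213% of all genes were called at an adjusted p under 0.05 by edgeR's quasi-likelihood test. No member reached an unadjusted p under 0.05, where 15.7% of all genes did. DESeq2 called 0 of 10, where it called 1246 of 24898 genes. The median log2 fold change of the 10 was 0.25, beside 0.05 over all genes, and 7 values were above 0 and 3 below. With the trend on transcript GC content and length removed from each library, the median was 0.13, BBC3 moved to 0.23 and CDKN1A to 0.11, and MDM2 (0.08) and BAX (-0.02) changed sign. As scaled, BBC3 had the largest, 0.52 (SE 0.30, adjusted p = 0.420), and RRM2B the lowest, -0.26 (SE 0.19, adjusted p = 0.541). CDKN1A stood at 0.29 (SE 0.21, adjusted p = 0.537) and MDM2 at -0.10 (SE 0.17, adjusted p = 0.828). In the same fit METTL14 had a log2 fold change of -1.96 with an SE of 0.23 (adjusted p = 0.00266). MDM4 had a value of 0.32 (SE 0.15, adjusted p = 0.328).

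Averaged over the H1 hairpins, none of the 10 passed either, where 7.16% of genes did by the edgeR quasi-likelihood test. At an unadjusted p under 0.05 there were 2, SESN1 and ZMAT3, where 23.2% of all genes were, and DESeq2 called 1, ZMAT3, where it called 10.8% of all genes. The edgeR value of ZMAT3 was 0.37 (SE 0.12, adjusted p = 0.0881) and that of SESN1 0.23 (SE 0.10, adjusted p = 0.197). The 10 had a median log2 fold change of 0.11, beside 0.01 over all genes. KDR was lower in all 6 knockdown libraries than in SCR. Of the 5 pluripotency markers, 3 were called on this average, 1 higher and 2 lower, where 7.16% of all genes were called. POU5F1 (21.3 to 36.7 CPM against 58.6 and 62.2 CPM) was lower in all 6. SOX2 (512 to 749 CPM against 417 and 436 CPM) was higher in all 6, and NANOG, LIN28A and DPPA4 overlapped SCR. Of the 5 neural markers, PAX6 (159 to 224 CPM against 95.8 and 139 CPM) and LHX2 (80.2 to 130 CPM against 63.0 and 74.9 CPM) were higher in all 6, while TUBB3, SOX1 and DCX overlapped SCR and had average values below 0. The part of these markers in the values of the 10 genes was not tested.

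SESN1 and ZMAT3 rose with hairpin KD3. SESN1 encodes a sestrin, which holds back mTORC1 when amino acids are short, and lies at chr6:108986437-109094819 on the minus strand (GENCODE v29, GRCh38). It stood at 22.6 and 24.0 CPM in H1 SCR, 21.4 and 20.8 CPM in KD1, 25.2 and 28.4 CPM in KD2 and 34.7 and 37.2 CPM in KD3. Both KD3 libraries were above every other H1 library, and the KD1 libraries were the lowest in H1. The difference of KD3 from SCR was 0.63 in log2 units (SE 0.12, adjusted p = 0.0237, edgeR).

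ZMAT3 encodes a zinc finger protein that binds RNA and alters splicing and stability of target transcripts, and lies at chr3:179017223-179072279 on the minus strand. It stood at 19.0 and 22.9 CPM in H1 SCR, 20.8 and 22.7 CPM in KD1, 24.4 and 25.6 CPM in KD2 and 35.8 and 38.1 CPM in KD3. The KD3 libraries were again above all others, while SCR and KD1 overlapped. The log2 fold change of KD3 against SCR was 0.82 (SE 0.14, adjusted p = 0.0161, edgeR). SESN1 and ZMAT3 were the 2 members called with KD3, where 2.98% of all genes were called and 1.19% were called higher. Of the other 8 members, 7 had values above 0 and GDF15 had -0.14, and FAS, with the largest, stood at 0.56 (SE 0.27, adjusted p = 0.305). Without H1 SCR replicate 1 or without H1 KD3 replicate 2, neither gene was called (SESN1 adjusted p = 0.104 and 0.161, ZMAT3 0.0853 and 0.119). SESN1 was also lost without H1 SCR replicate 2 (0.0749) or H1 KD3 replicate 1 (0.0573).

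TP53INP1, whose product promotes p53 phosphorylation by stress kinases and takes part in autophagy, was the third gene for which hairpins differed. It stood at 44.8 and 47.5 CPM in H1 SCR, 36.9 and 40.2 CPM in KD1, 34.1 and 33.9 CPM in KD2 and 50.0 and 58.0 CPM in KD3. All KD1 and KD2 libraries lay below both SCR libraries and both KD3 libraries above them. No hairpin passed against SCR: the log2 fold changes were -0.26 for KD1 (adjusted p = 0.228), -0.44 for KD2 (SE 0.13, adjusted p = 0.118) and 0.23 for KD3 (adjusted p = 0.370). After removal of the GC and length trend, TP53INP1 passed with KD2, at -0.57 (SE 0.12, adjusted p = 0.0304), the 1 member called where 3.16% of all genes were, and KD3 moved to -0.02. The KD1 and KD3 libraries differed in GC trend, and its part in the difference between these hairpins was not tested beyond that removal.

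**Figure D2:**
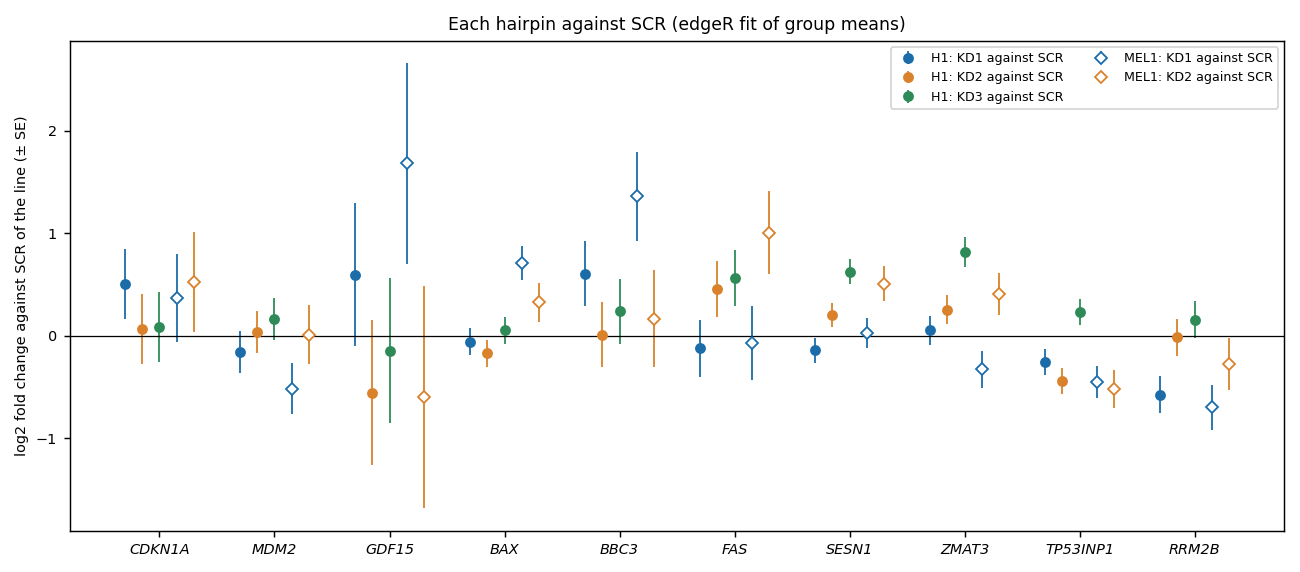
The log2 fold change of each hairpin against SCR of its line for the 10 genes, with error bars of 1 SE from the edgeR model of group means; filled circles are H1 and open diamonds MEL1. H1 KD3 lies above the other H1 hairpins for SESN1 (0.63) and ZMAT3 (0.82), and the error bars of GDF15 are the widest.

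The hairpins were then tested against each other in H1. Of the 10 genes, 3 differed between hairpins, SESN1 (adjusted p = 0.0168), ZMAT3 (adjusted p = 0.0291) and TP53INP1 (adjusted p = 0.0328), where 3.54% of all genes did by edgeR. As scaled, all 3 had both KD3 libraries above every other H1 library, a pattern that 6.53% of all genes shared. The excess of KD3 over KD1 in log2 units was 0.77 for SESN1 (SE 0.12, adjusted p = 0.00782) and 0.77 for ZMAT3 (SE 0.14, adjusted p = 0.0177). Between KD3 and KD1, 4.63% of all genes were called. RRM2B also passed there, with a difference of 0.73 (SE 0.18, adjusted p = 0.0457), although its test over the 3 hairpins did not (adjusted p = 0.0860). KD3 exceeded KD2 by 0.67 for TP53INP1 (SE 0.13, adjusted p = 0.0413), where 1.01% of all genes were called. KD2 and KD1 were not distinguished for any of the 10 by edgeR, against 0.851% of all genes called. METTL14 overlapped between KD3, at 8.89 and 13.5 CPM, and KD1, at 11.1 and 11.0 CPM, with a log2 difference of 0.02 (SE 0.24, adjusted p = 0.982).

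These hairpin differences depended on single libraries. Leaving out KD1 replicate 1, KD1 replicate 2 or KD3 replicate 2 left 0 of the 10 differing between hairpins, where 0.622%, 0.645% and 1.02% of all genes still did. Leaving out KD2 replicate 1 or KD3 replicate 1 left 1, SESN1, where 2.07% and 2.2% of all genes did, so calls over all genes fell in these settings as well. With the GC and length trend removed, ZMAT3 (adjusted p = 0.0144) and TP53INP1 (adjusted p = 0.0455) passed and SESN1 did not (adjusted p = 0.0725), where 5.49% of all genes did. KD3 against SCR then kept SESN1 at 0.61 (adjusted p = 0.0207) and ZMAT3 at 0.74 (adjusted p = 0.00947), the 2 members called where 6.38% of all genes were.

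RRM2B supplies deoxynucleotides for repair outside S phase. It stood at 30.7 and 44.7 CPM in H1 SCR, 24.2 and 26.2 CPM in KD1, 36.7 and 37.9 CPM in KD2 and 43.8 and 40.2 CPM in KD3. The KD1 libraries were the lowest, and the SCR replicates themselves spanned the KD2 and KD3 values. KD1 against SCR gave -0.58 (SE 0.18, adjusted p = 0.0635, edgeR). None of the 10 passed with KD1, where 11.1% of all genes did; 1 had an unadjusted p under 0.05 (26.6% of all genes), and DESeq2 called 1 (14.4% of all genes), both times RRM2B. None passed with KD2 either, where 1.54% of all genes did; TP53INP1 alone had an unadjusted p under 0.05 (16.1% of all genes) and was the 1 gene that DESeq2 called (4.61% of all genes). In both, the median of the 10 was close to that of all genes, -0.09 beside 0.00 with KD1 and 0.02 beside 0.01 with KD2.

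CDKN1A, the gene through which p53 halts the cell cycle, stood at 31.9 and 31.0 CPM in H1 SCR, 40.0 and 49.0 CPM in KD1, 24.2 and 41.6 CPM in KD2 and 44.7 and 22.0 CPM in KD3. The KD1 libraries were above SCR, but the KD2 and the KD3 replicates lay on opposite sides of it. KD1 against SCR gave 0.50 (SE 0.34, adjusted p = 0.405), KD2 0.06 and KD3 0.08.

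BBC3, whose product frees BAX and related proteins to act, stood at 32.9 and 24.8 CPM in H1 SCR, 41.6 and 46.1 CPM in KD1, 21.1 and 36.9 CPM in KD2 and 43.5 and 24.5 CPM in KD3. Its order over the libraries was close to that of CDKN1A. GDF15 stood at 17.9 and 17.0 CPM in H1 SCR, 24.6 and 28.3 CPM in KD1, 7.66 and 16.1 CPM in KD2 and 25.0 and 6.64 CPM in KD3. GDF15 was the least repeatable of the 10: its higher replicate was 3.77 times its lower in KD3 and 2.10 times in KD2. That ratio was 2.03 for CDKN1A and 1.78 for BBC3 in KD3, while for SESN1 it was at most 1.13 in any group. KD1 against SCR gave 0.60 (SE 0.32, adjusted p = 0.268) for BBC3 and 0.59 (SE 0.70, adjusted p = 0.659) for GDF15.

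The remaining H1 values overlapped more. BAX stood at 53.2 and 56.3 CPM in SCR and 46.9 to 63.7 CPM in the knockdown libraries, and its log2 fold changes were between -0.17 and 0.05. MDM2 stood at 31.9 and 51.1 CPM in SCR, and all 6 knockdown libraries, at 34.5 to 50.6 CPM, fell between those values. FAS stood at 3.15 and 4.88 CPM in SCR and 3.30 to 6.57 CPM in the knockdown libraries, with its 3 highest values in KD2 and KD3. Over the 6 H1 knockdown libraries, no member had a library standing apart by Dixon's criterion. The widest gap was 0.472 of the range for BAX, against a critical value of 0.625. The criterion pools the hairpins and looks for a single library at an end of the range. It cannot show libraries that stand apart together, as both KD3 libraries did for SESN1 and ZMAT3.

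The levels of the 10 genes in H1 were set beside the GC trend of the libraries. GC-rich transcripts were those of BBC3 (64.4% GC), GDF15 (61.5%), BAX (60.6%) and CDKN1A (59.4%), and ZMAT3 stood at 52.1%. The transcripts of FAS (42.0%), RRM2B (41.2%), MDM2 (40.8%), TP53INP1 (39.5%) and SESN1 (39.3%) were GC-poor. Over the 8 H1 libraries, log2(CPM + 1) of CDKN1A had a Pearson r of 0.797 with the library's GC trend (two-sided exact permutation p = 0.0212) and a Spearman rho of 0.762 (exact permutation p = 0.0368). The values were r = 0.836 and rho = 0.762 for BBC3 and r = 0.750 and rho = 0.762 for GDF15, and of opposite sign for MDM2 (r = -0.875, rho = -0.905), FAS (r = -0.801, rho = -0.810) and RRM2B (r = -0.796, rho = -0.810). These 6 of 10 had an unadjusted exact permutation p under 0.05 by Pearson's r, as 20.3% of the 24808 genes that varied in H1 did. By Spearman's rho SESN1 (rho = -0.786) was also under 0.05, 7 of 10 beside 18.8% of all genes. Adjusted over all these genes, no member passed: the lowest adjusted exact permutation p was that of MDM2, 0.111 by r and 0.107 by rho. By r 0% of all genes passed the adjustment and by rho 0.109%. The trend is itself a measure over GC-rich and GC-poor genes, so these values describe where the members lie along it. The permutations also treated the 8 libraries as exchangeable across hairpins. The KD1 libraries had the highest trends in H1 (0.302 and 0.574), so KD1 and a high trend cannot be told apart here.

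Without the 2 libraries farthest from the median trend, r was 0.711 for CDKN1A, 0.754 for BBC3, -0.688 for MDM2, -0.860 for FAS and -0.747 for RRM2B. For GDF15 it was 0.785. Over all 8 libraries the other r values were -0.597 for SESN1, -0.510 for ZMAT3, -0.494 for TP53INP1 and 0.027 for BAX. With the trend removed, the r values of the 6 were between -0.603 and 0.639, each nearer 0 than before. Those of SESN1 (-0.119) and TP53INP1 (0.095) were nearer 0 as well. Removing a trend on GC content lowers such r values by design, so these moves are no result about the members. The share of all genes that moved nearer 0 was not computed. BAX moved away from 0, to -0.697, and ZMAT3 to -0.563. The highest ratio between replicates stayed at 3.27 for GDF15 and 1.81 for CDKN1A after the removal. MEL1, with 4 libraries, was too small for such a relation.

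**Figure D3:**
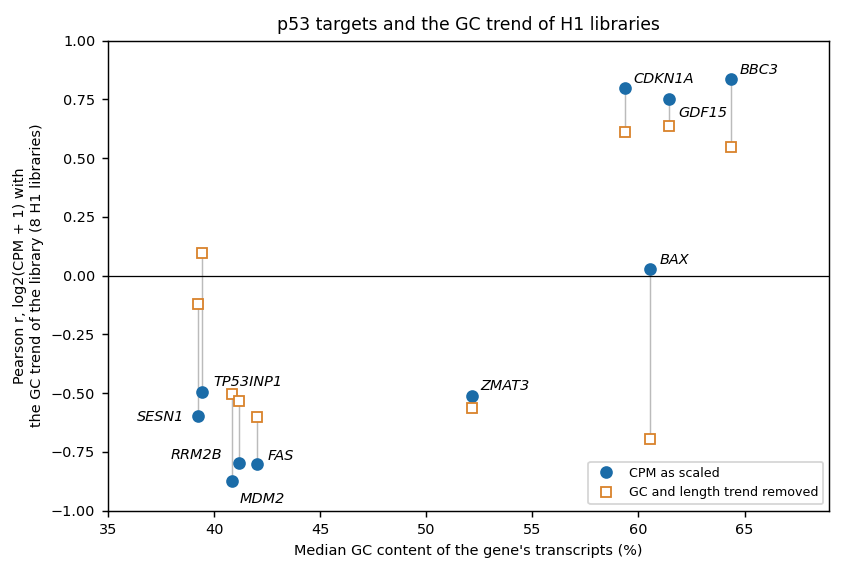
Pearson r over the 8 H1 libraries between each gene's log2(CPM + 1) and the library's GC trend (y axis), against the GC content of its transcripts in percent (x axis), before (circles) and after (squares) removal of the GC and length trend. CDKN1A, GDF15 and BBC3 lie at 0.750 or above and the 5 GC-poor genes below -0.49 before the removal.

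In MEL1, none of the 10 passed on the average of KD1 and KD2 against SCR, where 4.45% of all genes did by edgeR. At an unadjusted p under 0.05 there were 3, BAX, TP53INP1 and RRM2B, where 22.7% of all genes were, and DESeq2 called 1, TP53INP1, where it called 8.46% of all genes. The single MEL1 SCR library was assumed to vary like the other groups, and it is also the shallowest and the one with the lowest GC trend, so in MEL1 control, depth and GC trend cannot be told apart. BAX stood at 71.7 CPM in SCR, 113 and 121 CPM in KD1 and 89.9 CPM in KD2. All 3 knockdown libraries were above SCR, with KD1 highest. The share of all genes with all 3 MEL1 knockdown libraries on the same side of the single SCR library was not computed. Such orders, here and below, are therefore given as description only. The average difference was 0.52 in log2 units (SE 0.16, adjusted p = 0.0907), and KD1 alone passed, at 0.71 (SE 0.17, adjusted p = 0.0294), where 8.39% of all genes were called. With the GC and length trend removed, BAX under KD1 was at 0.23 (SE 0.15, adjusted p = 0.397).

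BBC3 stood at 15.2 CPM in MEL1 SCR, 35.2 and 42.7 CPM in KD1 and 17.0 CPM in KD2, and GDF15 at 8.52, 15.8, 38.8 and 5.62 CPM in the same order. For both, the KD1 libraries were high and the KD2 library near SCR. The KD1 values were 1.36 (SE 0.43, adjusted p = 0.0891) for BBC3 and 1.68 (SE 0.98, adjusted p = 0.338) for GDF15. CDKN1A stood at 47.3 CPM in SCR, 55.2 and 66.4 CPM in KD1 and 68.1 CPM in KD2, so all 3 knockdown libraries were above the control, and its average was 0.44 (SE 0.41, adjusted p = 0.577). TP53INP1, at 49.2 CPM in SCR, was lower in all 3 knockdown libraries (38.8, 33.0 and 34.3 CPM), with an average of -0.49 (SE 0.15, adjusted p = 0.0874). RRM2B was also below SCR in all 3, at 72.7 CPM against 50.7, 38.8 and 60.0 CPM (-0.49, SE 0.21, adjusted p = 0.189). Removing the GC and length trend gave MEL1 averages of 0.10 for CDKN1A, -0.21 for TP53INP1 (adjusted p = 0.468) and -0.19 for RRM2B. After that removal 1 KD1 library of CDKN1A lay below SCR (50.5 against 56.7 CPM) and 1 KD1 library of TP53INP1 above it (46.9 against 45.5 CPM), while RRM2B stayed below SCR in all 3. The KD1 values of BBC3 and GDF15 were then 0.67 and 1.15.

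The MEL1 KD2 library was the highest of the MEL1 libraries for 5 genes. SESN1 stood at 56.1 CPM there against 39.0 to 41.3 CPM in the other MEL1 libraries, ZMAT3 at 38.7 against 21.1 to 29.2 CPM and FAS at 8.48 against 3.86 to 4.23 CPM. CDKN1A and MDM2 were the others, each by a margin smaller than that between its KD1 replicates. MDM2 stood at 67.2 CPM in SCR, 51.4 and 42.5 CPM in KD1 and 67.6 CPM in KD2, so KD1 was low and KD2 near the control. The 5 pluripotency markers summed to 2282 CPM in the MEL1 KD2 library against 3298 to 3693 CPM in the other MEL1 libraries. The 7 trophoblast markers summed to 182 against 64.8 to 119 CPM. AFP, an endoderm and yolk sac marker, stood at 7.89 against 0.153 to 3.07 CPM. The neural, mesoderm and amnion sums of KD2 lay within the range of the others. The part of cell makeup in the KD2 values, and in the MEL1 average that includes them, was not tested. None of the 10 passed with KD2 alone by edgeR, where 3.88% of all genes did, and FAS, with the largest value, stood at 1.004 (SE 0.40, adjusted p = 0.188).

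Whether the KD1 and KD2 effect differed between the lines was tested directly. None of the 10 passed, by edgeR or by DESeq2, where 0.598% of all genes did by edgeR and 751 of 24898 genes did by DESeq2. BAX, with the largest difference, stood at 0.63 (SE 0.20, adjusted p = 0.143) and was the 1 member with an unadjusted p under 0.05, as 17.2% of all genes were. For the other 9 the SE of the difference ran from 0.18 (SESN1) to 1.10 (GDF15).

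The clearest differences in these genes were between the lines. With SCR, KD1 and KD2 weighted equally, 7 of 10 differed between MEL1 and H1 by edgeR, 6 higher and 1 lower in MEL1, where 49.1% of all genes tested differed, 23% being higher and 26.2% lower. The median difference was 0.48 for the 10 and -0.09 for all genes on the log2 scale. SESN1 was 0.92 higher in MEL1 (SE 0.08, adjusted p = 2.96e-06), RRM2B 0.82 (SE 0.12, adjusted p = 0.000153) and BAX 0.81 (SE 0.09, adjusted p = 1.63e-05). CDKN1A was 0.70 higher (SE 0.22, adjusted p = 0.0318), MDM2 0.56 (SE 0.13, adjusted p = 0.00516) and ZMAT3 0.40 (SE 0.10, adjusted p = 0.00473). The call of CDKN1A was lost without either MEL1 KD1 library, either H1 SCR library or H1 KD1 replicate 1 (adjusted p = 0.0536 to 0.0967).

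BBC3 was lower in MEL1, at -0.62 (SE 0.22, adjusted p = 0.0441). This call was lost with the GC and length trend removed (-0.31, adjusted p = 0.140), which left 6 members called where 51.6% of all genes were. It was also lost with median-of-ratios scaling (adjusted p = 0.0606), with upper-quartile scaling (adjusted p = 0.0586) and without either MEL1 KD1 library, either H1 KD1 library, H1 SCR replicate 1 or H1 KD2 replicate 2 (adjusted p = 0.0664 to 0.118). GDF15 (-0.69, adjusted p = 0.300), FAS (0.27, adjusted p = 0.249) and TP53INP1 (0.00, adjusted p = 0.9999) did not pass.

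BAX and SESN1 were the 2 members whose MEL1 and H1 libraries did not overlap, a pattern with MEL1 higher that 12.3% of all genes showed. BAX stood at 71.7 to 121 CPM in MEL1 and 46.9 to 63.7 CPM in H1, and SESN1 at 39.0 to 56.1 CPM in MEL1 and 20.8 to 37.2 CPM in H1. Once the GC and length trend was removed, BAX stayed apart (87.4 to 103 CPM against 45.3 to 64.4 CPM), SESN1 overlapped (32.5 to 54.6 CPM against 20.8 to 36.1 CPM) and CDKN1A no longer did (50.5 to 68.3 CPM against 25.1 to 45.5 CPM), where 13.4% of all genes had MEL1 higher without overlap. The line difference of both was also called with hairpin KD1 alone and with KD2 alone, neither of which uses the MEL1 SCR library. For SESN1 it was 0.93 (adjusted p = 0.000129) with KD1, where 40.4% of all genes were called, and 1.07 (adjusted p = 0.000331) with KD2, where 20.6% were. For BAX it was 1.16 (adjusted p = 5.38e-05) and 0.89 (adjusted p = 0.00218). RRM2B passed in both as well, at 0.83 and 0.69, whereas CDKN1A, at 0.45 (adjusted p = 0.332) and 1.05 (adjusted p = 0.110), and MDM2, at 0.34 (adjusted p = 0.219) and 0.66 (adjusted p = 0.0814), passed in neither. ZMAT3 passed with KD2 (0.63, adjusted p = 0.0231) and not with KD1 (0.10, adjusted p = 0.624). With SCR alone, where 27.6% of all genes were called, SESN1 (0.76, adjusted p = 0.00290) and RRM2B (0.95, adjusted p = 0.00726) passed and BAX did not (0.39, adjusted p = 0.0996). The lines also differed in their pluripotency, neural, trophoblast, and amnion and surface ectoderm markers, as given above, and 2 endoderm and yolk sac markers were called higher in MEL1, and the part of cell makeup in the levels of these genes was not tested.

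**Figure D4:**
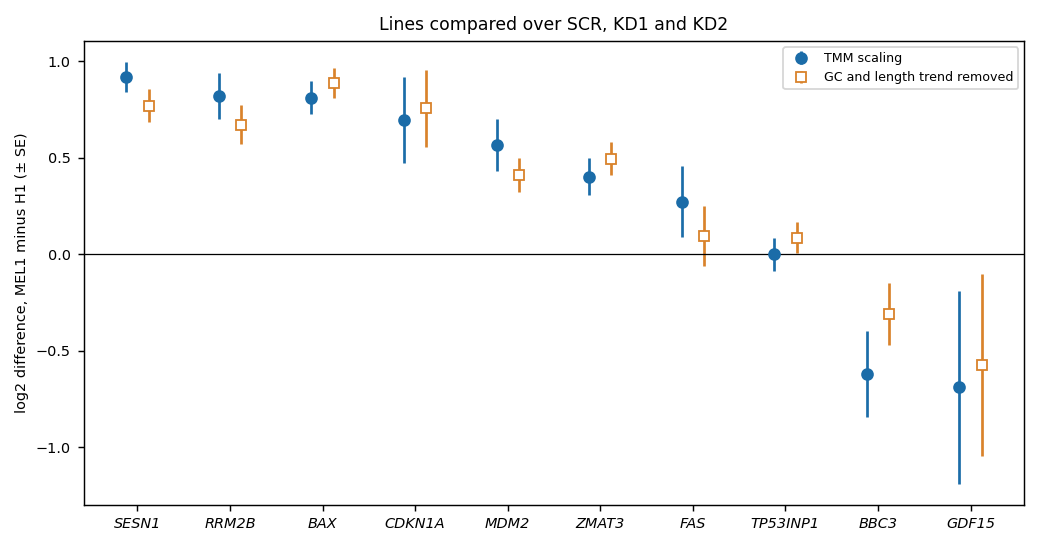
Difference between MEL1 and H1 in log2 units (MEL1 minus H1, mean of SCR, KD1 and KD2, error bars of 1 SE) for the 10 genes with TMM scaling (circles) and with the GC and length trend removed (squares). SESN1, RRM2B, BAX, CDKN1A, MDM2 and ZMAT3 lie above 0 under both, and BBC3 lies at -0.62 and -0.31.

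How the 10 varied together was described over the 12 libraries after centring each line. These are correlations of libraries that share depth and GC trend, and no test was made of them. SESN1 and ZMAT3 were the most alike pair (Pearson r = 0.900, 12 libraries), followed by GDF15 and BBC3 (0.894). MDM2 ran opposite to BBC3 (-0.794) and to GDF15 (-0.759) and with RRM2B (0.795). Among all genes averaging 1 CPM or more, SESN1 was most like LINC00404 (0.968), DNAJC3-DT (0.921) and IGSF11 (0.920), and ZMAT3 most like CNKSR2 (0.960), VGLL3 (0.955) and F2R (0.949). TP53INP1 was most like HLCS (0.951), TCIM (0.910) and RIPPLY3 (0.896). BAX was nearest to RELL2 (0.964), BBC3 to ALG3 (0.980), MDM2 to TRAPPC11 (0.967), RRM2B to LNX2 (0.946) and CDKN1A to BAG3 (0.877).

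The wider pathway was read from 4 further lists. Of 14 genes for regulators and relatives of p53, 0 were called over both lines by edgeR (3 at an unadjusted p under 0.05, where 15.7% of all genes were). On the H1 average 0 rose and 1 fell, where 7.16% of all genes were called. The 1 was CHEK2, a checkpoint kinase that phosphorylates p53, at 53.5 and 59.8 CPM in SCR and 39.1 to 46.0 CPM in the H1 knockdowns (log2 fold change -0.44, SE 0.09, adjusted p = 0.0210). TP73, a p53 relative that binds the same element, differed between H1 hairpins (adjusted p = 0.00113). It stood at 6.12 and 5.05 CPM in KD2 and at 1.01 to 2.01 CPM in the other H1 libraries, and at 19.2 CPM in MEL1 KD2 against 7.12 to 7.52 CPM in the other MEL1 libraries. KD2 against SCR in H1 gave 1.93 for TP73 (SE 0.22, adjusted p = 0.00219). MDM4 was not called on the H1 average, at 0.46 (SE 0.15, adjusted p = 0.0842). With the GC and length trend removed it was, at 0.39 (SE 0.10, adjusted p = 0.0267), 1 of 3 genes of this list called where 10.2% of all genes were, and also with KD1 (0.39, adjusted p = 0.0461).

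Of 25 further p53 targets, 0 were called over both lines by edgeR (6 at an unadjusted p under 0.05, where 15.7% of all genes were). On the H1 average 2 rose and 3 fell, with a median of 0.06. Of all genes, 7.16% were called on the H1 average and 4.45% on the MEL1 average. DDB2, the damage sensor of nucleotide excision repair, stood at 31.6 and 27.7 CPM in SCR and 36.0 to 52.1 CPM in the H1 knockdowns, above SCR in all 6 (0.61, SE 0.13, adjusted p = 0.0209). BTG2, an antiproliferative deadenylation factor, rose as well, from 54.0 and 47.2 CPM to 58.7 to 83.9 CPM (0.53, SE 0.13, adjusted p = 0.0398). PMAIP1 (NOXA), a BH3-only protein like BBC3, fell, from 9.07 and 12.8 CPM in SCR to 3.94 to 10.1 CPM (-0.79, SE 0.17, adjusted p = 0.0224), and KD3 overlapped SCR. TP53I3 fell by 0.45 (SE 0.11, adjusted p = 0.0368) and TRIAP1, which blocks activation of caspases at the apoptosome, by 0.45 (SE 0.10, adjusted p = 0.0287). Of these 5 calls, that of TRIAP1 was lost with the GC and length trend removed (adjusted p = 0.0511, edgeR). The MEL1 averages were opposite in sign to H1 for TP53I3 (0.43) and TRIAP1 (0.21). They had the sign of H1 for DDB2 (0.11), BTG2 (0.62) and PMAIP1 (-0.72). In MEL1, 0 rose and 1 fell, RPS27L, at 146 CPM in SCR and 70.7 to 102 CPM in the knockdowns (-0.82, SE 0.13, adjusted p = 0.0144). That call was lost with the GC and length trend removed (-0.56, adjusted p = 0.0585), where 2.14% of all genes were called. Between the lines, 15 of the 25 were higher and 3 lower in MEL1, with a median of 0.60, beside 23% and 26.2% of all genes and a median of -0.09.

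Of 14 tested genes of the apoptosis machinery, 0 were called over both lines by edgeR (3 at an unadjusted p under 0.05, where 15.7% of all genes were). On the H1 average 1 rose and 2 fell. Of all genes, 7.16% were called on the H1 average and 4.45% on the MEL1 average. BCL2L11 (BIM), a BH3-only activator of apoptosis, rose by 0.58 (SE 0.12, adjusted p = 0.0172). The caspase gene CASP8, which acts below FAS, fell by 1.08 (SE 0.19, adjusted p = 0.0107), and CYCS (cytochrome c) by 0.43 (SE 0.10, adjusted p = 0.0263). CASP8 was low throughout, at 3.51 and 3.58 CPM in SCR and 1.29 to 2.27 CPM in the H1 knockdowns. In MEL1, BAD (0.83, adjusted p = 0.0290) and BCL2L1 (0.62, adjusted p = 0.0275) rose and CYCS fell (-0.73, adjusted p = 0.0224). Of these 3 only CYCS was still called without the GC and length trend (-0.48, adjusted p = 0.0488), and BAD stood at 0.32 (adjusted p = 0.238) and BCL2L1 at 0.44 (adjusted p = 0.0638). Between H1 hairpins, BID (adjusted p = 0.0275) and BCL2 (adjusted p = 0.0421) differed by edgeR, where 3.54% of all genes did. BCL2 did not pass with the GC and length trend removed (adjusted p = 0.0535). BID stood at 12.5 and 14.5 CPM in KD1 and 19.9 to 24.0 CPM in the other H1 libraries.

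Of 14 genes of the integrated stress response, a pathway that can raise GDF15 independently of p53, 0 were called over both lines by edgeR (3 at an unadjusted p under 0.05). On the H1 average 0 rose and 1 fell, where 7.16% of all genes were called, and in MEL1 0 rose and 2 fell, where 4.45% were. PSAT1, for serine synthesis, fell in both (-0.47, adjusted p = 0.00990 in H1 and -0.59, adjusted p = 0.0252 in MEL1), and ASNS, asparagine synthetase, fell in MEL1 (-0.95, adjusted p = 0.0396). Both MEL1 calls were lost with the GC and length trend removed (PSAT1 -0.38, adjusted p = 0.137; ASNS -0.74, adjusted p = 0.174), and that of PSAT1 in H1 was not (-0.42, adjusted p = 0.0139). The medians of this list were -0.24 in H1 and -0.30 in MEL1, beside 0.01 and 0.07 over all genes. Between the lines 0 of 14 were higher and 6 lower in MEL1, beside 23% and 26.2% of all genes.

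**Figure D5:**
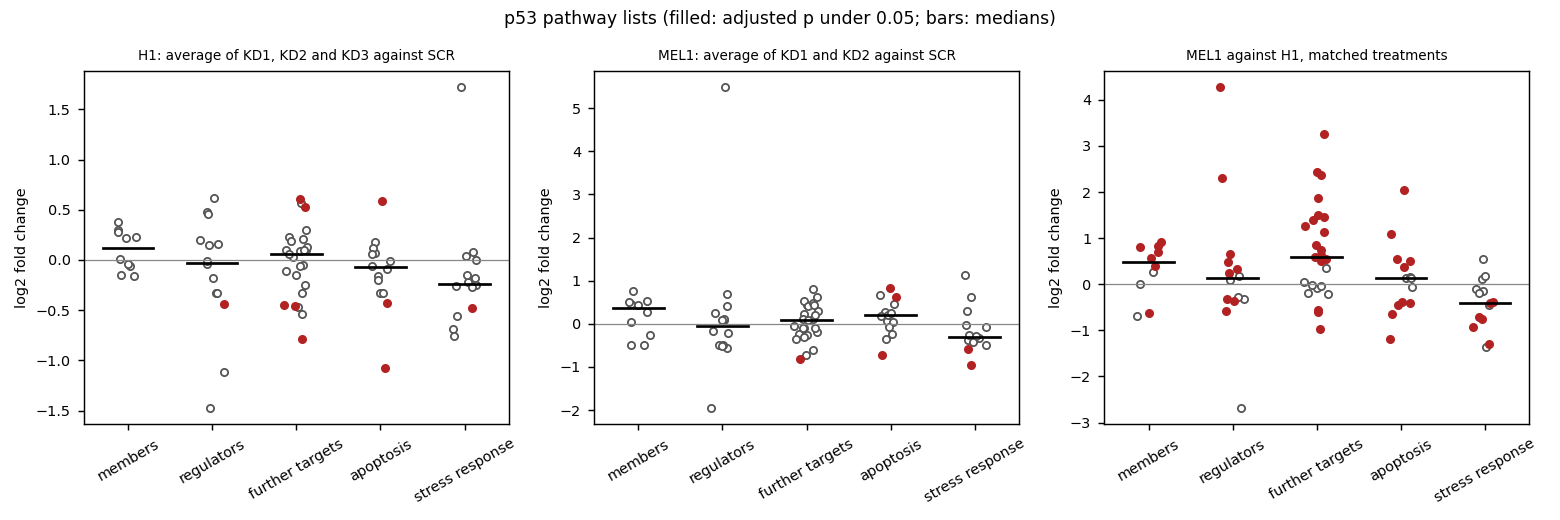
The log2 fold changes (y axis) of the 10 targets and the 4 further lists in 3 comparisons, with 1 point for each gene, filled where the adjusted p was under 0.05, and a bar at the list's median. On the H1 average and the MEL1 average 0 of the 10 targets are filled, and between the lines 7 are.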

How the data were processed

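RNA was sequenced in 12 libraries (stranded total RNA, per the labels' protocols). The submitters' processing notes name fastp and kallisto; build, annotation and strand setting are not given in the sources used here. The authors deposited estimated counts, 1 row for each Ensembl gene, not scaled between libraries by the authors as far as the values show (14.8% to 20.8% were not whole, per the values). Estimated counts divide reads between similar genes. None of the 10 genes had counts identical to another identifier.

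Counts were rounded, filtered with filterByExpr on 7 groups and scaled by TMM. Robust edgeR 4.0.16 quasi-likelihood F-tests (R 4.3.3) used a model of 7 group means with 5 residual degrees of freedom, or line plus knockdown for the comparison over both lines, with Benjamini-Hochberg adjustment over 24898 genes and a threshold of 0.05. SE is the log2 fold change divided by the root of F. Library names follow accession order and pair nothing. Levels per kilobase use GENCODE v29 exon lengths on GRCh38, matched by identifier for 10 of 10. The GC and length trend was fitted per library with splines of 5 and 4 degrees of freedom, and 90.7% of tested genes had both values. It was fitted on deviations from the mean of all 12 libraries. Its removal therefore also takes out differences between the lines that follow GC content or length. The rank correlations with GC content used deviations from the mean of the line. Other settings were scaling by median of ratios or upper quartile, no filter or a stricter filter on low counts, a non-robust fit, DESeq2 1.42.0, counts thinned to the smallest library, H1 alone, and each library left out. Correlations with the library GC trend were tested by exact permutation over the 8 H1 libraries and adjusted over all genes that varied there. Tests were tried on simulated data.

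The 10 genes, the lists and the tests were chosen with earlier results of these data known. Named list genes were those called over both lines, on the H1 or MEL1 average or between hairpins (at most 8 a list by p in H1), plus MDM4. Some genes of the lists are not reported here and enter no list count. The 3 most alike genes were sought for each of the members called in any comparison. RefSeq promoter windows were used for 8 members; TP53INP1 and RRM2B are not shown.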

Additional observations from a re-analysis of the deposited data

Results flagged for a closer look

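The effect of knockdown in H1 differed between the 3 hairpins for SESN1 (adjusted p = 0.0168), ZMAT3 (adjusted p = 0.0291) and TP53INP1 (adjusted p = 0.0328) by edgeR's quasi-likelihood test on both hairpin differences together. For all 3, both KD3 libraries were above every other H1 library as scaled. With the GC and length trend removed, the KD3 libraries of TP53INP1 (47.1 and 44.5 CPM) lay between the H1 SCR libraries (50.8 and 41.9 CPM). The 3 calls also depended on single libraries, as given above. METTL14 stood at 8.89 and 13.5 CPM in the KD3 libraries and at 11.0 to 17.7 CPM in the KD1 and KD2 libraries.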

How the results depend on the processing

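No paired analysis was possible because the labels carry no replicate numbers and same-numbered libraries share only accession order.

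The counts of the 10 genes called over both lines and for the difference of the effect between lines were 0 in every setting run. On the H1 average the count moved from 0 to 1 with DESeq2 and to 1 with thinned counts (ZMAT3). With KD1 it moved from 0 to 4 with no filter on low counts (BBC3, CDKN1A, GDF15 and RRM2B), to 1 with DESeq2 and to 1 with thinned counts, and was 0 to 1 with 1 library left out. With KD2 it was 1 with DESeq2 and 1 with the GC and length trend removed (TP53INP1). With KD3 it was 2, and 0 to 2 with 1 library left out. Between hairpins it was 3, 6 with no filter, and 0 to 4 with 1 library left out. In MEL1 it was 0, 2 with no filter (BAX and BBC3) and 1 with DESeq2 (TP53INP1). Between the lines it was 7, and 5 to 8 over all settings; BBC3 was called in 9 and CDKN1A in 13 of 18. The cause was not tested. MEL1 averages and line differences could not be computed without MEL1 SCR or MEL1 KD2. Of 1810 member results in other settings, 1754 kept their side of the threshold, 35 lost and 21 gained a call, and 0 called values changed sign. Of 1417 values without a call, 62 (4.38%) changed sign.

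The numbers of all genes called moved more. Over both lines 53 were called, 1246 with DESeq2, 2688 with group means, 175 in H1 alone, 80 with no filter, 87 with a stricter filter, 23 with the trend removed and 11 to 280 with 1 library left out. For the H1 average, KD1, KD2, KD3, hairpins, MEL1 and the difference between lines the counts were 1783, 2758, 384, 741, 881, 1107 and 149. With no filter they were 3256, 4160, 1745, 2290, 3384, 2703 and 1369, with DESeq2 2696, 3591, 1149, 1675, 2224, 2107 and 751, and with the trend removed 2548, 3157, 786, 1588, 1368, 533 and 397. With 1 library left out the lowest were 123, 206, 64, 108, 154, 507 and 34. The last count was also 88 with median-of-ratios scaling and 82 with a non-robust fit. Depth limits MEL1 SCR most, at 15963241 counts.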
